A study of Mus musculus with 10 samples.

Results

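The response of mouse white fat to the β3-adrenergic agonist CL316,243, which the labels shorten to CL, was taken from 4 of the 10 arrays of the series: 2 of white fat after CL and 2 of white fat after saline, chosen by their labelled tissue and injection. All were from wild type mice fed chow and injected into the abdomen once a day for 7 days, with 1 mg/kg CL or with saline. The other 6 arrays held brown fat after saline (2 arrays, same genotype and feeding) and brown adipocytes in culture at days 0, 3, 5 and 7 of differentiation (1 array a day). The labels call the replicates biological, and give neither the depot of white fat nor whether an array held RNA of 1 mouse, so p-values measure the spread between these arrays. The arrays were 1-colour slides with probes for long non-coding RNAs and other transcripts.

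White fat stores triglyceride in adipocytes, and brown fat burns fuel for heat. β3-adrenergic receptors on adipocytes raise cyclic AMP, which starts lipolysis, and prolonged stimulation is known to make some white depots take on brown-like, or beige, adipocytes with more mitochondria. Long non-coding RNAs are transcripts without a long open reading frame, often present at low level and in few tissues. Fewer cells of a type and less RNA per cell cannot be told apart in such bulk tissue.

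A level is given throughout as the log2 of the background-subtracted signal less the array's own 75th percentile, so a step of 1 is a 2-fold step and levels are compared only within a probe. Most probes carry a design number (the prefix ASMM9PARTA and digits) and no gene. Of 56 entries on marker lists for adipocytes and other cells, and of reference genes, 9 were measured under their names; Ucp1, Cidea, Lep and Adipoq were not among them, so the labelled tissue could not be checked against its defining markers. Probes that were well above background made up 74.0% and 77.3% on the saline arrays against 62.4% and 63.4% on the CL arrays, while 10.9% to 36.4% of negative control spots carried that mark over the 10 arrays. The file headers give each array a position label, whose leading part was read here as the slide column. White fat arrays of the same injection shared that part and those of the other injection did not. If it marks position, treatment and position cannot be told apart. CL array 1 was the brightest of the 4 (75th percentile 9.19 on the log2 scale) and CL array 2 the dimmest (7.88).

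The widest separation was on probe ASMM9PARTA029387. It read -2.31 and -3.98 after saline and 4.80 and 3.77 after CL, a difference of 7.43 (SE 0.62, limma adjusted p = 0.167). Both CL arrays stood far above both saline arrays and below brown fat, which read 9.05 and 8.56. In cultured brown adipocytes the same probe went from -4.93 at day 0 through -1.70 and 0.75 to 3.05 at day 7. The intergenic non-coding probe MM9LINCRNAEXON11065- read -1.23 and -1.67 after saline and 2.44 and 2.92 after CL, a difference of 4.13 (SE 0.42, limma adjusted p = 0.270). Its brown fat levels, -1.88 and -2.59, were near those of saline white fat, and in culture it went from 1.45 at day 0 to -2.41 at day 7. Both probes were thus higher on each CL array, while brown fat and the differentiating cells carried them in opposite ways.

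Across all probes, no difference passed the test. limma called 0 of 43085 tested probes (0%) at an adjusted p of 0.05, and the smallest adjusted p was 0.167. At an unadjusted p of 0.05 there were 2370 probes, 846 higher and 1524 lower after CL. With normexp background correction, which pulls dim signals together, limma called 19 probes, 9 higher and 10 lower. Without saline array 1 it called 4, without saline array 2 it called 111, and without either CL array 0. The groups of 2 allow no exact permutation p below 0.333, so the description below rests on whether the groups overlap and by how much.

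Probes on which both CL arrays lay above both saline arrays numbered 5409 (12.6% of 43037 probes with values on all 4 arrays), and 6648 (15.4%) lay below. These 12057 probes, 28.0% in all, include many with narrow gaps. If the arrays were exchangeable, a share of 0.333 would be without overlap in either direction. Lack of overlap alone therefore marks no response. A gap of at least 2-fold between the nearest CL and saline arrays was found on 196 probes upward (0.455%) and 477 downward (1.11%). This lean toward lower probes differed between settings. Probes at least 2-fold higher and lower numbered 260 and 436 with median scaling, 283 and 754 without the filter on dim probes, 249 and 312 with quantile normalization, 98 and 106 with normexp correction and 78 and 28 in the deposited value table, which lists fewer probes. Among probes well above background on all 4 arrays they numbered 156 and 139. Without saline array 1 they were 315 and 997, without saline array 2 421 and 1022, and a lone CL array gave the larger counts described with each array.

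Among 112 tested probes with a gene symbol, both CL arrays were higher on 6 (5.36%, beside 12.6% of all probes) and lower on 18 (16.1%, beside 15.4%), and the groups overlapped or a value was lacking on 88. None was higher by 2-fold and 3 (2.68%, beside 1.11% of all) were lower by 2-fold; the lowest adjusted p of any was 0.645 by limma. Gk encodes glycerol kinase, which phosphorylates free glycerol so that it can be used again for triglyceride synthesis. Its probe read -1.79 and -1.67 after saline and -1.105 and -1.096 after CL, a difference of 0.63 (SE 0.34, limma adjusted p = 0.947), with brown fat at 0.59 and 0.80. The groups did not overlap, and the CL arrays lay between saline white fat and brown fat. The Gk value is a mean of 20 spots on each array, whose SD was 0.18 to 0.36 within an array.

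Tfrc, the transferrin receptor through which cells take up iron, read 5.20 and 5.40 after saline and 5.96 and 6.35 after CL. That difference of 0.86 (SE 0.36, limma adjusted p = 0.904) put both CL arrays close to brown fat, at 6.07 and 6.43. Hmgcs1, the cytosolic HMG-CoA synthase of the cholesterol pathway, read 7.31 and 8.20 after saline and 8.27 and 9.32 after CL, so that the nearest arrays were only 0.07 apart. Tmlhe, which starts carnitine synthesis, read -2.24 and -2.42 after saline, 0.01 on CL array 1 and -1.57 on CL array 2. Tmlhe therefore had no overlap, with most of its mean difference of 1.55 coming from CL array 1. The glycolytic gene Gapdh (8.62 and 8.65 after saline, 8.72 and 9.59 after CL) and B020031M17Rik (-2.33 and -2.32, then -1.81 and 0.84) leaned the other way, with the larger step on CL array 2.

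On the lower side, the probes of Ccl21b and Ccl21c read the near-identical copies of a chemokine that lymphatic vessels and lymph node stroma make to draw in lymphocytes and dendritic cells. Ccl21b read 7.72 and 7.49 after saline and 6.16 and 7.10 after CL, a difference of -0.97 (SE 0.54, limma adjusted p = 0.95). Ccl21c read 7.82 and 7.48, then 6.16 and 7.29. CL array 1 was the lower CL array for both, and probes of such close copies cannot be told apart. They were the 2 measured members of the 12 lymph node and lymphocyte markers; the part of such tissue in the other results was not tested. The chemokine gene Ccl28 read 0.72 and -0.05 after saline and -0.37 and -0.35 after CL. Aida differed by -0.36 without overlap, from 2.70 and 2.71 to 2.41 and 2.29.

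The 3 symbol probes lower by 2-fold were AY761185, Gm6040 and AF067063, and each rests on a weak point. AY761185 read 3.73 on saline array 1 but -0.54 on saline array 2, against -2.32 and -1.76 after CL. Gm6040 read 0.91 and -2.86 after saline and was not well above background on either CL array, which makes it at least 6.19-fold lower on the mean of both saline arrays. AF067063 read -3.81 and -4.06 after saline, so low that no fold can be given. Without saline array 2, limma called both AY761185 (a difference of -5.77, adjusted p = 0.003) and Gm6040 (-5.32, adjusted p = 0.009), with the lone saline array assumed to vary like the other groups.

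Other lower symbol probes included the oocyte homeobox gene Obox2, at least 1.66-fold lower, and the vomeronasal receptor gene Vmn1r63, at least 1.12-fold lower, neither well above background after CL. Pramel37 read -1.40 and -0.56 after saline and -3.19 and -1.45 after CL. The predicted genes Gm20826, Gm20865 and Gm20816 were lower by 0.85 to 0.94 on the mean, with the nearest arrays 0.02 to 0.05 apart and CL array 1 the lower one in each. For these the groups are separate by less than the distance between the CL arrays.

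**Figure D1:**
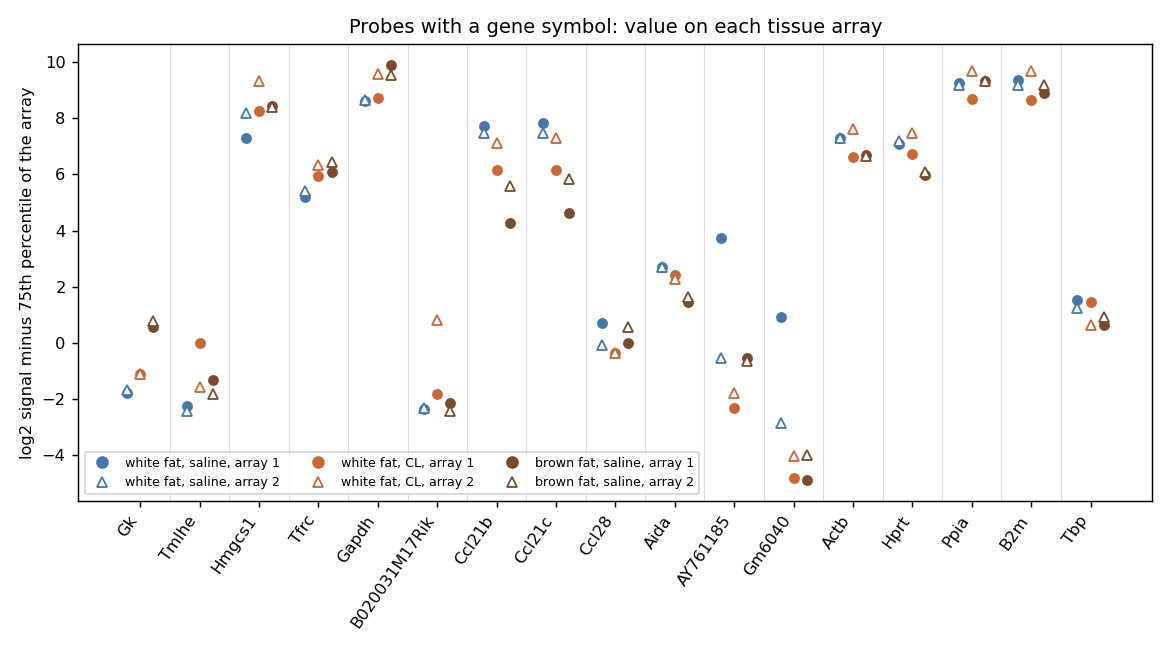
Level (log2 units, scaled by array) of probes with a gene symbol on each tissue array, filled circles for array 1 and open triangles for array 2. Gk and Tfrc have close CL arrays above close saline arrays, while for Actb, Hprt, Ppia and B2m CL array 1 lies below both saline arrays and CL array 2 above them, and AY761185 and Gm6040 are high on saline array 1 alone.

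Reference genes show how far the CL arrays differ from each other. Ppia read 9.24 and 9.20 after saline but 8.69 and 9.68 after CL, and B2m 9.38 and 9.18 but 8.65 and 9.68. Their mean differences were -0.04 and -0.12, and that of Ppia turned to 0.04 with median scaling. On Ppia and B2m the saline arrays thus agree within 0.2 while the CL arrays lie about 1 apart. This did not hold for every such probe. Gusb read 4.067 and 4.685 after saline and 4.268 and 4.402 after CL. Of 15 probes printed in 20 spots, 8 were below the saline mean on CL array 1 and above it on CL array 2, 4 were the reverse, 3 (Gk, Tfrc and Gapdh) were above it on both and 0 were below it on both. Spot SDs of these probes within a white fat array were 0.027 to 0.355.

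The 9 probes that limma called higher after normexp correction all lay at least 2-fold above both saline arrays without it; 7 of them carry design numbers from the run absent from the authors' value table, 1 another design number and 1 is MM9LINCRNAEXON11065-. ASMM9PARTA029736 read -0.08 and 1.34 after saline and 4.66 and 6.37 after CL, with brown fat at 6.94 and 6.07. ASMM9PARTA029772 read 1.34 and 0.74, then 4.35 and 3.99, with brown fat at 8.29 and 7.99. ASMM9PARTA020481 read 1.77 and 1.54, then 4.49 and 5.64, with brown fat at 6.19 and 5.31. On ASMM9PARTA029772 both CL arrays lay below both brown fat arrays. On ASMM9PARTA029736 and ASMM9PARTA020481 CL array 1 lay below them and CL array 2 between them. All 3 were well above saline white fat on both CL arrays. Of these, ASMM9PARTA029772 and ASMM9PARTA020481 were also far higher in the cultured cells at day 7 than at day 0, by 9.55 and 9.44, while ASMM9PARTA029736 differed there by -0.83. ASMM9PARTA027999 read -0.32 and -0.36 after saline, 2.67 and 2.53 after CL and 5.29 and 4.72 in brown fat.

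Other higher probes had lower levels in brown fat than after CL. ASMM9PARTA045730 read -0.31 and 0.72 after saline and 3.43 and 3.40 after CL, against -2.46 and -2.56 in brown fat, and its levels in culture stayed between -2.34 and -1.98. ASMM9PARTA022752 read -0.805 and -1.004, then 1.94 and 1.55, and was not well above background in brown fat. ASMM9PARTA027470 was not well above background on either saline array and read 2.66 and 0.96 after CL, at least 65.4-fold higher; brown fat read 0.81 and -1.57, and in culture the probe was highest at day 3, at 2.04. Of the 9 probes, brown fat was at least 2-fold above the CL mean for 3, within 2-fold for 2 and 2-fold below for 4. Over all tested probes these shares were 10.7%, 74.9% and 14.5%, but the 9 were chosen by their difference between CL and saline. The cells at day 7 were at least 2-fold above day 0 for 6, below for 1 and within 2-fold for 2. Of all measured probes 9.57% were 2-fold higher at day 7 and 10.4% lower. In the limma fit that called 0 of 43085 probes, these 9 had an adjusted p of 0.167 or more. ASMM9PARTA029387 passed under other settings too, while none of the others passed under another setting that kept both saline arrays. Without saline array 2 the differences were 3.91 for MM9LINCRNAEXON11065-, 5.59 for ASMM9PARTA029736, 6.52 for ASMM9PARTA027470 and 3.72 for ASMM9PARTA045730.

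Other non-coding probes named by locus or transcript were higher after CL too. MM9LINCRNAEXON10708- read 0.55 and 0.81 after saline and 2.20 and 3.14 after CL, against 4.71 and 4.37 in brown fat, and in culture it went from 0.80 to 3.42. MM9LINCRNAEXON11365- read -2.32 and -1.17, then 0.43 and 0.75, with brown fat at 0.47 and 0.94 and the cells at -3.48 on day 0 and 0.31 on day 7. Both had higher levels after CL and in brown fat than after saline, and at day 7 than at day 0. MM9LINCRNAEXON11238- read -2.85 and -3.02 after saline and -1.45 and -1.42 after CL, with no such step in culture (-0.96 at day 0 and -1.06 at day 7). The probe humanlincRNA0506- was not well above background after saline and read -1.64 and -1.72 after CL, at least 5.81-fold higher.

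Probes whose numbers follow MM9LINCRNAEXON11065- were looked at after its values were seen. MM9LINCRNAEXON11066- read -2.28 and -2.34 after saline and -0.22 and -0.97 after CL, and MM9LINCRNAEXON11067- read -1.59 and -1.23, then -0.47 and -0.29. Their differences, 1.72 and 1.03, were smaller than 4.13 and had no overlap, whereas the next number differed by 0.57 with the nearest arrays 0.09 apart (MM9LINCRNAEXON11068+) and by 0.08 with overlap (MM9LINCRNAEXON11068-). That consecutive numbers mark 1 transcript is not stated in the files. Of 11 lincRNA probes higher by 2-fold, 6 had a tested probe named for the other strand of the same locus, and none of the 6 was higher on both CL arrays while 2 were lower; over all 1946 such partners 10.9% were higher and 15.9% lower.

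Among transcript accessions, AK138758 read -0.81 and -0.73 after saline and 0.56 and 0.90 after CL, a difference of 1.497 (SE 0.40, limma adjusted p = 0.612), with brown fat at 3.89 and 3.15. AK039249 read -0.47 and -0.35, then 0.80 and 1.43, while brown fat read 0.42 and 0.28. BB649909 read -1.80 and -2.22, then -0.32 and 0.08, but its brown fat arrays were -2.06 and 1.26, wider apart than the white fat groups. AK153799 differed by 1.37 and AK196148 by -0.72, the latter from 3.54 and 3.32 to 2.84 and 2.58. C75950 was well above background on 1 saline array and read -0.62 and -2.42 after CL. Ultraconserved elements, which are stretches of genome alike between distant mammals, gave uc.460- at 2.61 and 2.65 after saline and 4.18 and 3.48 after CL, and uc.436- at -0.17 and 0.16, then 1.05 and 1.40. Of 430 such probes, 1 was higher by 2-fold, uc.264-, which was not well above background after saline and at least 1.89-fold higher.

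**Figure D2:**
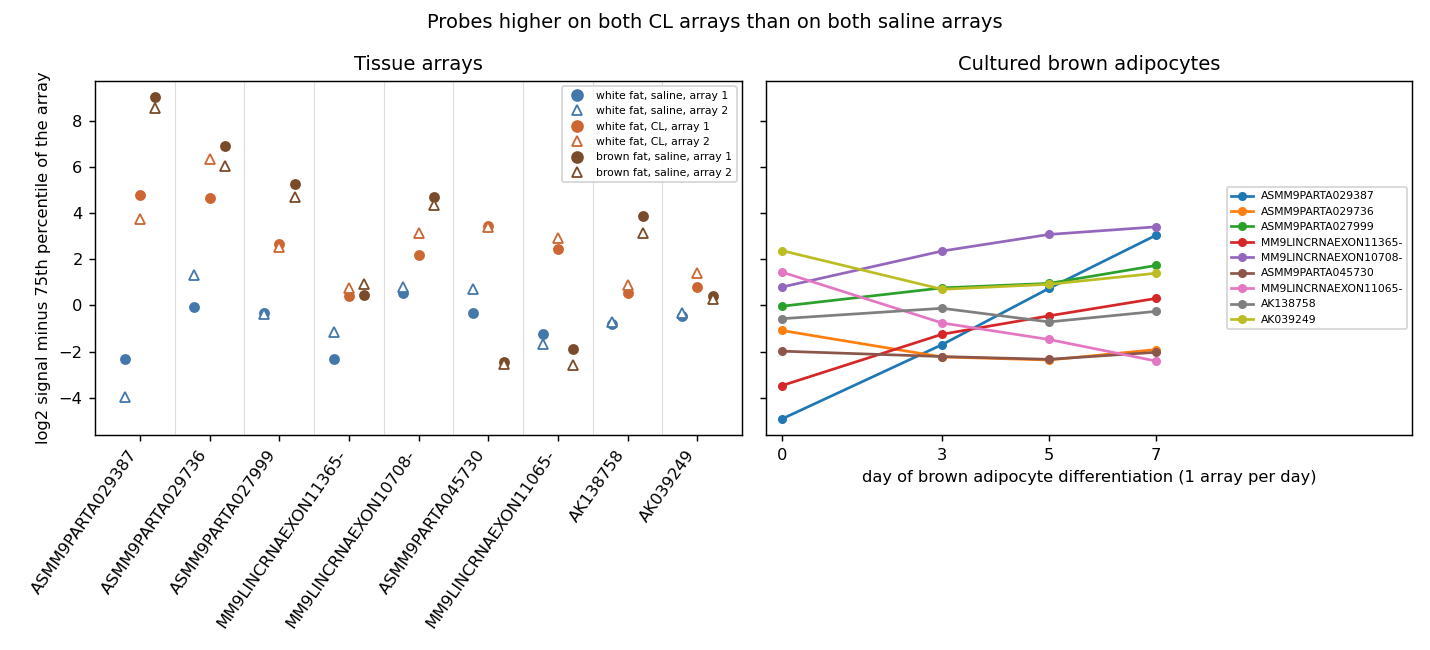
Levels of 9 probes that were higher on both CL arrays, on the 6 tissue arrays (left; circles for array 1, triangles for array 2) and through brown adipocyte culture (right; 1 array for each day, joined by lines). ASMM9PARTA029387 goes from -4.93 to 3.05 in culture and is highest in brown fat, while MM9LINCRNAEXON11065- goes from 1.45 to -2.41 and ASMM9PARTA045730 stays low in both.

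Among the lower probes 3 kinds are described, which do not cover all 477. The first are the 10 that limma called lower after normexp correction, all of them design numbers from the run absent from the value table. ASMM9PARTA032080 read 4.85 and 3.98 after saline and 1.25 and 1.30 after CL, with brown fat at -0.51 and -0.82. ASMM9PARTA032497 read 4.52 and 3.71, then 0.79 and 1.21, with brown fat at -1.11 and -1.26. ASMM9PARTA043903 read 3.54 and 3.20, then -0.47 and -1.80. In these the saline arrays were within 2-fold of each other and the CL arrays lay on the side of brown fat. ASMM9PARTA029395 went the other way, at 6.21 and 5.72 after saline, 1.64 and 2.80 after CL and 8.12 and 8.72 in brown fat. Brown fat was at least 2-fold below the CL mean for 5 of the 10, above it for 2 and within 2-fold for 3. The shares over all tested probes were 14.5%, 10.7% and 74.9%. In culture day 7 was within 2-fold of day 0 for 8, which is near the share over all measured probes. Of those, 9.57% were 2-fold higher and 10.4% lower.

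The second kind had a saline array that stood apart. On 130 probes saline array 1 was at least 8-fold above saline array 2, and on 31 the reverse held. Their medians were 1.95 and -2.17 on the saline arrays, -3.84 and -3.34 on the CL arrays and -3.58 and -3.43 in brown fat. Of these 130 probes, 60 were lower by 2-fold on both CL arrays, 12.6% of the 477. ASMM9PARTA021104 read 6.96 and 2.41 after saline and -2.66 and -2.02 after CL, and is the strongest of them measured on all 4 arrays. ASMM9PARTA044516 read 3.81 and -0.81 after saline and was not well above background after CL, at least 34.3-fold lower. ASMM9PARTA040778, ASMM9PARTA020473, ASMM9PARTA037404, ASMM9PARTA001648, ASMM9PARTA050408 and ASMM9PARTA051423 behaved alike, with bounds of 22.1-fold to 48.6-fold. These named probes were chosen for the width of their gap, so a gap to saline array 2 as well was part of the choice. On ASMM9PARTA021104 the nearest CL and saline arrays were 21.5-fold apart. Without the 60, 417 lower probes were left. With saline array 2 left out, limma called 111 probes, of which 104 were lower, and 92 of the 111 were among these 130.

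The third kind was dim. On 317 of the 477 lower probes (66.5%) neither CL array was well above background, and for 126 of them no fold could be given because the lowest measurable levels of the CL arrays averaged above the saline mean; 74 had a bound of at least 2-fold, 39 of which belong to the 130 above. The lowest level well above background was -4.27 and -4.17 on the saline arrays but -3.79 and -3.41 on the CL arrays. All 8 ultraconserved elements lower by 2-fold were of this dim kind, among them uc.37+ (at least 1.11-fold lower) and uc.249- (at least 1.15-fold lower), as were all 3 transcript accessions and 27 of 31 lincRNA probes. ASMM9PARTA050993 is a brighter case, at -1.46 and -1.90 after saline and at least 3.79-fold lower, with brown fat at -1.24 and -0.39, and ASMM9PARTA016917 was at least 6.68-fold lower. With probes split by mean level into 3 equal parts, 2.19% of the dimmest part were lower and 0.39% higher by 2-fold, against 0.558% and 0.565% of the brightest part.

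Where saline pairs and CL pairs were each within 2-fold and all 4 arrays were well above background, 131 probes were higher and 83 lower by 2-fold. The probes that meet these conditions were not counted, so no share is given. Without the condition on the pairs, 156 were higher and 139 lower of 34229 probes. Lower lincRNA probes measured on all 4 arrays were 3 in number. Of these, humanlincRNA1364+ read -1.04 and -1.06 after saline and -2.98 and -2.39 after CL, and MM9LINCRNAEXON10942- read -0.43 and -0.98, then -2.17 and -2.06.

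**Figure D3:**
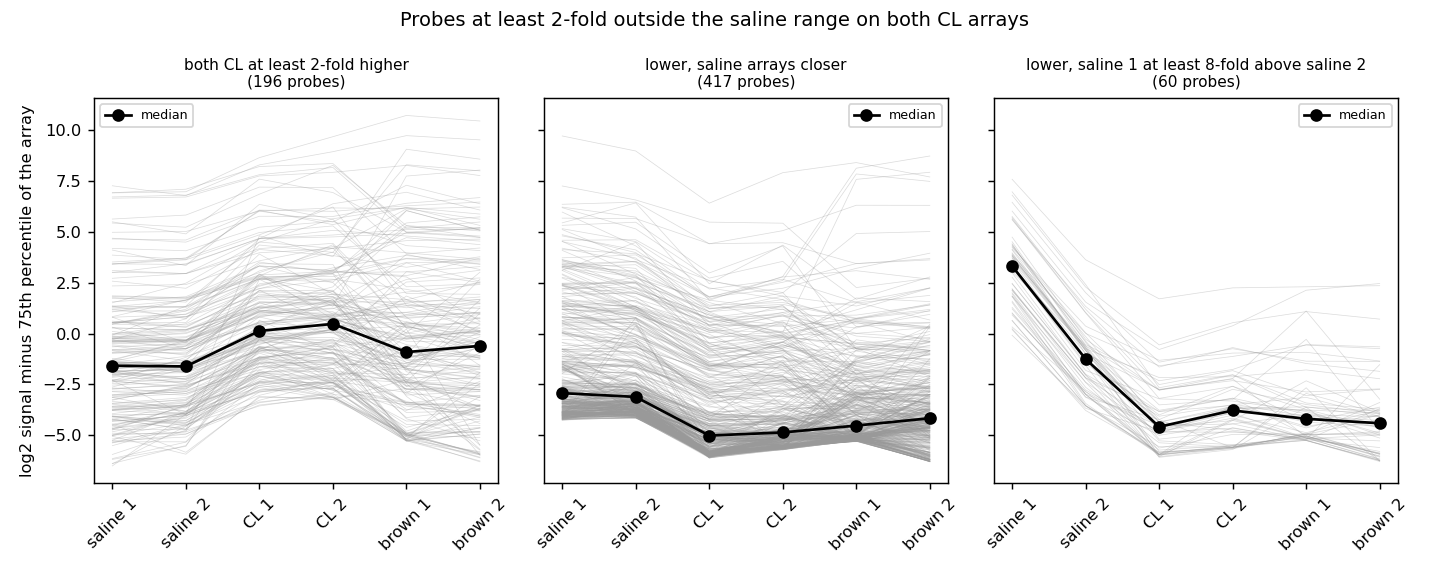
Levels on the 6 tissue arrays of the 196 probes at least 2-fold higher on both CL arrays (left), the 417 lower ones on which saline array 1 was less than 8-fold above saline array 2 (middle), and the other 60 lower ones (right); grey lines are probes and black points medians. The right panel shows the step between the saline arrays, and the middle panel the other lower probes, many of them dim on the CL arrays.

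By class of probe name, higher probes made up 12.4% of design numbers in the listed range, 13% of the run absent from the value table, 11.6% of lincRNA loci, 12.1% of transcript accessions and 10.5% of ultraconserved elements, beside 12.6% of all. Lower probes made up 17%, 13.8%, 15.5%, 16.1% and 15.3% in the same order, beside 15.4%. RefSeq mRNA accessions had 7 higher (6.14%) and 20 lower (17.5%) of 114, and the 5 RefSeq non-coding accessions had 0 in either direction. At 2-fold, beside 0.455% higher and 1.11% lower of all probes, the run absent from the value table held 98 higher (0.51%) and 265 lower (1.38%), the listed range 79 (0.411%) and 167 (0.869%), lincRNA loci 11 (0.347%) and 31 (0.979%), and transcript accessions 7 (0.8%) and 3 (0.343%). Restricted to probes well above background on all 4 arrays, these were 81 and 103, 60 and 32, 9 and 3, and 6 and 0. Over all classes they were 156 and 139 of 34229 such probes. Such probes were not counted by class, so no shares by class are given. No test of a difference between classes was run.

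**Figure D4:**
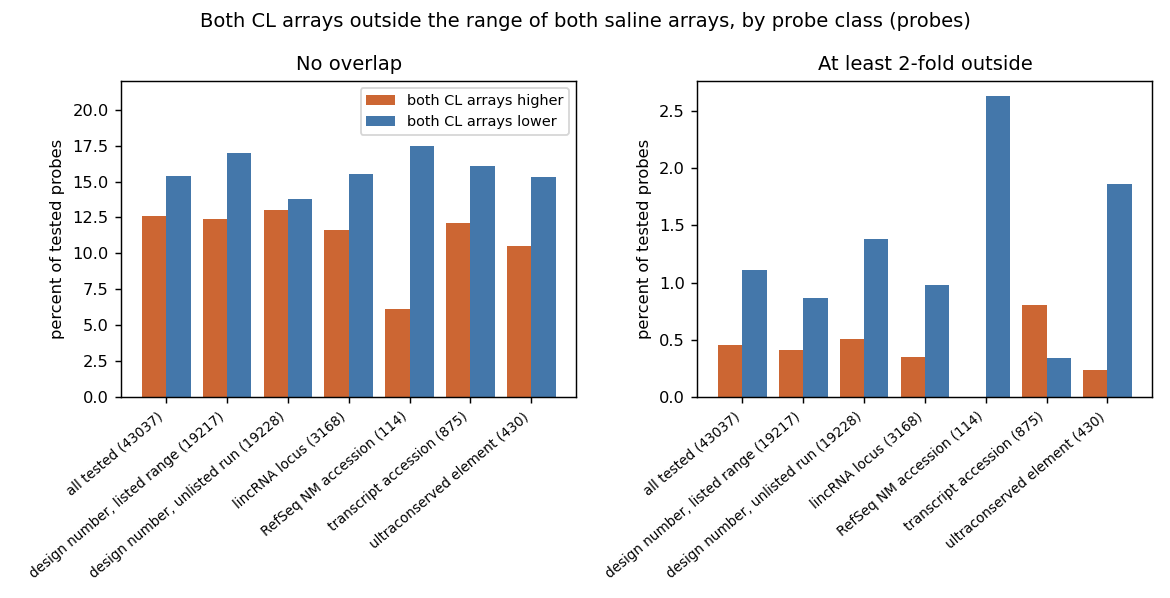
Percent of tested probes on which both CL arrays lay above (orange) or below (blue) both saline arrays (left), and at least 2-fold above or below (right), by class of probe name, with the number of probes in brackets. On the left, RefSeq mRNA accessions have 6.14% higher, beside 12.6% of all probes; the tall right-hand bars of RefSeq mRNA accessions and ultraconserved elements stand for 3 and 8 probes.

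Taken alone, each CL array gave many more probes than the pair. CL array 1 was at least 2-fold above both saline arrays on 2081 probes (4.84%) and below on 4310 (10.0%), and CL array 2 on 1227 (2.85%) and 2314 (5.38%). The median difference from the saline mean was -0.289 on CL array 1 and 0.131 on CL array 2. Classes differed between the arrays: of RefSeq mRNA accessions 39.5% were 2-fold lower on CL array 1 and 2.63% on CL array 2, of lincRNA loci 11% and 2.46%, and of design numbers in the run that the table lacks 7.74% and 8.26%. With quantile normalization CL array 1 was below on 2534 probes and CL array 2 on 2270. The 2 CL arrays were at least 2-fold apart on 34.9% of probes, against 4.21% for the saline arrays and 10.3% for CL array 2 with saline array 2.

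Some probes were far outside the saline range on 1 CL array only. ASMM9PARTA027887 read 5.06 on CL array 1 but -0.51 on CL array 2, within the saline values of 1.42 and -0.73. ASMM9PARTA041188 read -3.64 on CL array 1 and -0.82 on CL array 2, with saline at 1.10 and -0.91. For CL array 2 alone, ASMM9PARTA008861 read 1.85 against -3.46 on CL array 1, and ASMM9PARTA032302 read -1.04 against 2.50. The largest distance between the CL arrays was on MM9LINCRNAEXON11201-, at 2.69 and -5.53, and its saline arrays also differed widely, at 2.06 and -3.56. ASMM9PARTA029410 was alike, at 5.31 and 1.27 after saline and 6.50 and -0.63 after CL. In the opposite direction MM9LINCRNAEXON10564+ read -4.67 on CL array 1 and 1.97 on CL array 2 with saline at -4.19 and -3.82. The mean over 2 CL arrays describes neither of them on such probes.

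Differences that share no array were set side by side. CL 1 minus saline 1 correlated with CL 2 minus saline 2 at r = 0.248 across 43085 probes, and with the saline arrays exchanged r was -0.18. The sign thus depended on which arrays were paired. Among RefSeq mRNA accessions r was 0.621 and 0.127, and among lincRNA loci 0.307 and 0.062. These are descriptions across probes, which share the slide and the scaling of each array.

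**Figure D5:**
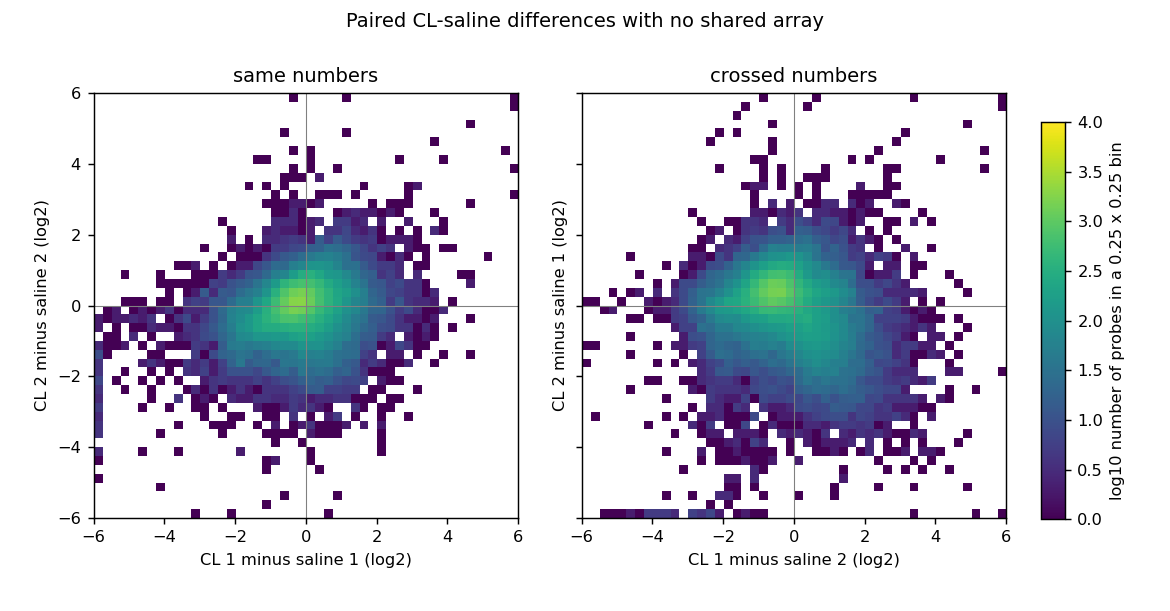
Number of probes (colour, log10) in bins of 0.25 by the difference CL 1 minus saline 1 against CL 2 minus saline 2 (left), and with the saline arrays exchanged (right), in log2 units; differences beyond 6 are drawn in the edge bins. The cloud leans up to the right in the left panel (r = 0.248) and down in the right panel (r = -0.18), and the dense core of the right panel lies at negative values for CL 1 and positive ones for CL 2.

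Levels in brown fat are given beside the 2-fold lists, whose CL levels are extreme by choice. For the 196 higher probes the brown fat mean was at least 2-fold above the CL mean on 28 (14.3%, against 10.7% of all probes). It was within 2-fold on 60 (30.6%, against 74.9%) and at least 2-fold below on 108 (55.1%, against 14.5%). Median levels were -1.58 and -1.61 after saline, 0.13 and 0.47 after CL, and -0.91 and -0.61 in brown fat. So most higher probes, which were chosen for high CL levels, were not at their highest in brown fat. For the 477 lower probes the medians were -2.47 and -2.90, then -4.93 and -4.76, and -4.48 and -4.19 in brown fat. Of the 476 with brown fat values, brown fat was at least 2-fold above the CL mean on 104 (21.8%). It was within 2-fold on 300 (63%) and at least 2-fold below on 72 (15.1%).

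The cultured brown adipocytes share no array with the CL comparison. Of the 196 higher probes 170 were measured at day 0 or day 7, and 64 (37.6%) were at least 2-fold higher at day 7 than at day 0 while 21 (12.4%) were 2-fold lower. Over all 40709 measured probes the shares were 9.57% and 10.4%. At day 3 and day 5 the higher probes were 2-fold above day 0 in 37.9% and 41.2% of cases, against 10% and 10.2% of all. Of the lower probes 27.5% were 2-fold lower at day 7 and 14.4% higher. The probes of the higher list with the largest step in culture, chosen after their values were seen, included ASMM9PARTA027436, which read 6.91 and 6.96 after saline, 8.64 and 9.67 after CL, 10.71 and 10.44 in brown fat, and went from -2.88 to 7.23 in culture.

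The CL arrays differed in this readout. Probes 2-fold above saline on CL array 2 were higher at day 7 in 31.5% of cases and lower in 6.32%, and those 2-fold below were higher in 7.62% and lower in 41.3%. Probes 2-fold above saline on CL array 1 were higher at day 7 in 16.8% and lower in 17.8%, and those below were higher in 10.3% and lower in 18%. With 1 array per day and 1 CL array on each side these shares carry no test, and dim probes enter them with the rest; among probes well above background on all 4 white fat arrays 40.9% of the higher ones were 2-fold higher at day 7 (10.4% of all) and 23% of the lower ones 2-fold lower (8.96% of all).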

How the data were processed

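The deposited scanner files give an intensity per spot, made with Agilent Feature Extraction 11.0.1.1 per the file headers; the submitters' processing notes name 9.1. A deposited value table holds log2 values whose making by the authors is not given in the sources used here, and it served as an alternative. Control spots, 1200 spots of 20 negative control probes and outlier spots were left out, spots of a probe were averaged in log2 (59709 probes; 0 spots were saturated), and each array's 75th percentile was subtracted. Tested probes were well above background on both arrays of saline or of CL white fat. One limma model (limma 3.58.1, R 4.3.3; lmFit, eBayes) with 3 group means was fitted to the 6 tissue arrays (3 residual degrees of freedom, prior 4.47), two-sided, with Benjamini-Hochberg adjustment over all 43085 probes. Scripts were tested on simulated data.

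Where no array of a group measured a probe well above background, its fold is a bound ("at least N-fold"): the other group's mean was compared with a mean in which each dim array counted as its lowest level well above background, or as the probe's level where that was higher. No fold is given where the bound is under 1. Symbols came from a RefSeq table (GRCm38.p6, names only), which named 116 of 123 probes with a RefSeq accession. The array is annotated on mm9, so no coordinates are given; probe sequences were not used here.

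Named probes were a list of names that held ASMM9PARTA029387 and MM9LINCRNAEXON11065-. Added to it were, per class and direction, the 5 with the widest gap and no overlap, and every such probe with a symbol. Markers and reference genes were named too, as were the probes furthest out on 1 CL array or furthest apart between CL arrays. Probes called after normexp correction, and others said to be so, were named after their values were seen. Members, lists and rule were chosen with earlier results of these data known. Classes follow probe names; design numbers were split into the longest run of numbers (24592 probes) with none in the value table and the rest (the listed range).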

Additional observations from a re-analysis of the deposited data

How the results depend on the processing

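limma called 0 probes with quantile normalization, median scaling, the value table, the other 2 filters that kept dim probes, white fat alone and array weights. It called 19 with normexp correction and 1, ASMM9PARTA029387 in each case, with a mean-variance trend (adjusted p = 0.0335), with tested probes restricted to those well above background on the 4 white fat arrays (adjusted p = 0.0237) and with a replicate block (adjusted p = 0.0123). Over all alternatives the adjusted p of ASMM9PARTA029387 ran from 0.00052 to 1. The deviations of same-numbered arrays correlated at 0.507 between saline and CL white fat, but at -0.017 and -0.081 with brown fat. Nothing in the labels pairs the arrays, so what same-numbered white fat arrays share beyond a number is not known, and the block is a description. Leaving out 1 white fat array at a time gave 0 to 111 calls. In the same way probes higher on both CL arrays numbered 7090 to 20620, lower 9299 to 24981, 2-fold higher 315 to 2081 and 2-fold lower 997 to 4311, since fewer arrays must be cleared.

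Probes higher and lower on both CL arrays numbered 3358 and 2788 in the value table, 9267 and 10033 without a filter, and lower ones 3365 with normexp correction and 3741 with all 4 arrays above background. At 2-fold they numbered 78 and 28 in the value table, 98 and 106 with normexp correction, and lower ones 754 without a filter, 312 with quantile normalization and 139 with all 4 arrays above background; at 1.5-fold they were 756 and 1234. Counts for CL array 1, higher and lower, were 793 and 613 in the value table, 1320 and 1020 with normexp correction, 4505 and 9687 at 1.5-fold, and lower ones 6568 without a filter, 1629 with all 4 above background and 2534 with quantile normalization. Those for CL array 2 were 529 and 352, 547 and 542, and 4510 and 4752, with 2351 higher without a filter and 1099 lower with all 4 above background. The value table lists fewer probes and the filters test other numbers of probes; for the rest the cause was not tested.

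Alternatives chosen after seeing the data moved the share of 2-fold higher probes that were higher at day 7 from 37.6% to 48.4% with normexp correction, and that of lower probes that were lower from 27.5% to 21.8%. Leaving out 1 array gave 16.8% to 40.8% and 18% to 41.3%. Median scaling moved the median of all probes from -0.0805 to -0.0047, and leaving out CL array 1 or 2 moved it to 0.1308 or -0.2888.

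Signs turned for Ppia (0.040) and Hprt (0.031) with median scaling and for MM9LINCRNAEXON11201- (0.397), ASMM9PARTA029236 (0.808) and ASMM9PARTA025816 (0.195) with normexp correction. Leaving out 1 white fat array at a time, the differences of reference genes turned sign within these ranges: Hprt (-0.419 to 0.329), Ppia (-0.530 to 0.458), B2m (-0.632 to 0.399), Actb (-0.680 to 0.323) and Tbp (-0.736 to 0.056). So did those of MM9LINCRNAEXON11201- (-4.781 to 3.440), ASMM9PARTA029410 (-3.925 to 3.206), ASMM9PARTA029236 (-3.523 to 3.238), ASMM9PARTA044009 (-0.040 to 4.452), ASMM9PARTA029732 (-0.053 to 3.783), ASMM9PARTA027887 (-0.854 to 4.712), ASMM9PARTA047035 (-3.038 to 0.068), ASMM9PARTA040499 (-2.805 to 0.113) and humanlincRNA0312- (-0.296 to 4.762), and of ASMM9PARTA006022 (-0.327 to 4.364), ASMM9PARTA008861 (-0.717 to 4.592), ASMM9PARTA030385 (-5.187 to 1.624), ASMM9PARTA025816 (-4.283 to 2.215), MM9LINCRNAEXON10564+ (-0.668 to 5.970), MM9LINCRNAEXON12054+ (-0.934 to 5.333), MM9LINCRNAEXON11037+ (-1.738 to 4.390), ASMM9PARTA004204 (-1.763 to 3.956) and humanlincRNA2253- (-1.827 to 3.656). The probes in the last sentence were named because the CL arrays differ on them.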
